A study of Schizosaccharomyces pombe with 12 samples.

Results

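The 43 genes described here are fission yeast genes that took a larger share of the mRNA in diploids than in haploids, both untreated and after the alkylating agent MMS, and whose own share moved little with MMS. They were chosen from 4857 *S. pombe* genes by counts per 1000000 counts of the library over *S. pombe* genes (CPM). A gene was kept if its mean CPM was at least 5 and if its mean in diploids was at least 1.2 times its mean in haploids in both treatments. Every diploid library also had to lie above every haploid library within a treatment, and the ratio of MMS to untreated (NT) had to lie between 0.8 and 1.25 in both ploidies. Of 4450 genes with a mean CPM of 5 or more, 406 passed the ratio in NT, 220 also passed it in MMS, 86 also had no overlap of libraries, and 43 also passed both MMS windows. All of these values come from the same 12 libraries that are described below. The ratios between groups are therefore given as a description of the genes chosen, with no test.

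The haploid strain was of mating type h- with *smt-0*, and carried *ade6-M210*, *leu1-32*, *ura4-D18* and *his3D-1*. The diploid was homozygous for the same mating type and markers, except that it carried *ade6-M210* over *ade6-M216*. The diploid was made by protoplast fusion of such haploids, so that ploidy was compared within 1 mating type. The *smt-0* deletion, which stops mating-type switching, was shared by all groups. The study selected diploids by complementation between the *ade6* alleles. Ploidy therefore cannot be told apart from *ade6* function or from the strain here. Each culture grew in YES medium at 32 °C and was divided into an NT portion and a portion with 0.0075% MMS for 4 h, with 3 libraries of polyadenylated RNA in each of the 4 groups. Equal numbers of cells were harvested, and ERCC RNA standards (spike-ins) were added in equal volume.

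A diploid yeast cell carries each chromosome as a pair and is larger than a haploid cell, and most of its mRNAs scale with the genome. CPM removes such a common change and shows which genes took more or less of the total. The genes below include cytosolic chaperones, which fold newly made and stress-damaged proteins, enzymes of glycolysis and fermentation, which carry most of the carbon flow of fission yeast in glucose medium, and genes near chromosome ends, where fission yeast heterochromatin and nutrient signals are known to shape expression.

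Total counts lay between 16288362 and 26493886 per library, of which the spike-ins took 1.33% to 4.24%. The deleted marker *ura4+* was listed at 0 in all 12 libraries and *his3+* stayed at or under 0.431 CPM, as the genotypes state for every strain. The M-cell pheromone genes *mfm1+*, *mfm2+* and *mfm3+* had counts in every library, with *mfm1+* as low as 1.58 CPM. Of other genes listed for M cells, *mat1-Mc+* had only 0.295 to 1.26 CPM and *mam1+* had 48.5 to 76.4. A row for *mat1-Pc+* was not among those analysed, which says nothing of its expression. Of genes listed for P cells, *map1+* had 21.2 to 50.3 CPM. The P-factor gene *map2+* lay between 46.1 and 316.9 CPM, the highest in the library Diploid MMS 3. A set of 267 genes had a mean under 0.5 CPM, and 180 of them lie wholly inside the interval of another gene, while 0 of the 4450 genes with a mean CPM of 5 or more do. A gene inside another gene, such as the chaperonin gene *cct2+*, thus had no measurable level here, and 0 members lie inside another gene.

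Together the 43 members took between 1.18% and 1.72% of the *S. pombe* counts in the 6 haploid libraries, and between 2.18% and 2.75% in the 6 diploid libraries. Their ploidy ratios ran from 1.21 to 2.79 in NT and from 1.21 to 2.60 in MMS, with a median of 1.37 in each. The median over all genes with a mean CPM of 5 or more was 0.955 in NT and 1.01 in MMS. Most members differed modestly: 27 had both ratios under 1.5, 12 had both over 1.5, and only *grt1+* and *gdt1+* had both over 2. The members were not the most abundant genes as a group, with mean CPM from 9.36 to 2985 and a median of 134 against 121 for all genes, although 6 members exceeded 1000 CPM.

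**Figure D1:**
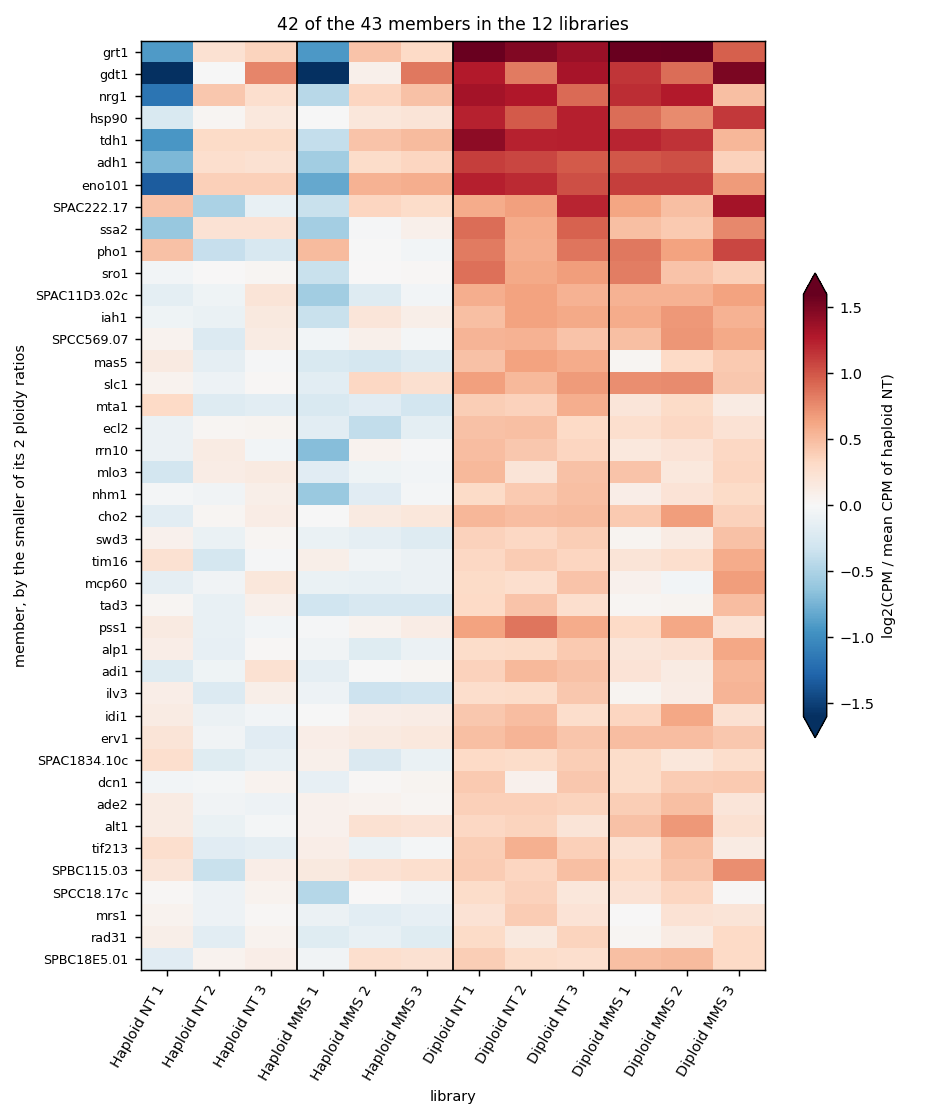
Log2 of CPM over the mean of haploid NT (colour) for 42 of the 43 members (vertical axis, ordered by the smaller of the 2 ploidy ratios) in each of the 12 libraries (horizontal axis, black lines between groups). All 42 plotted members lie above the haploid NT mean in 5 of the 6 diploid libraries and 41 do in Diploid MMS 2, and the uppermost rows are darkest blue in the haploid libraries numbered 1.

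**Figure D2:**
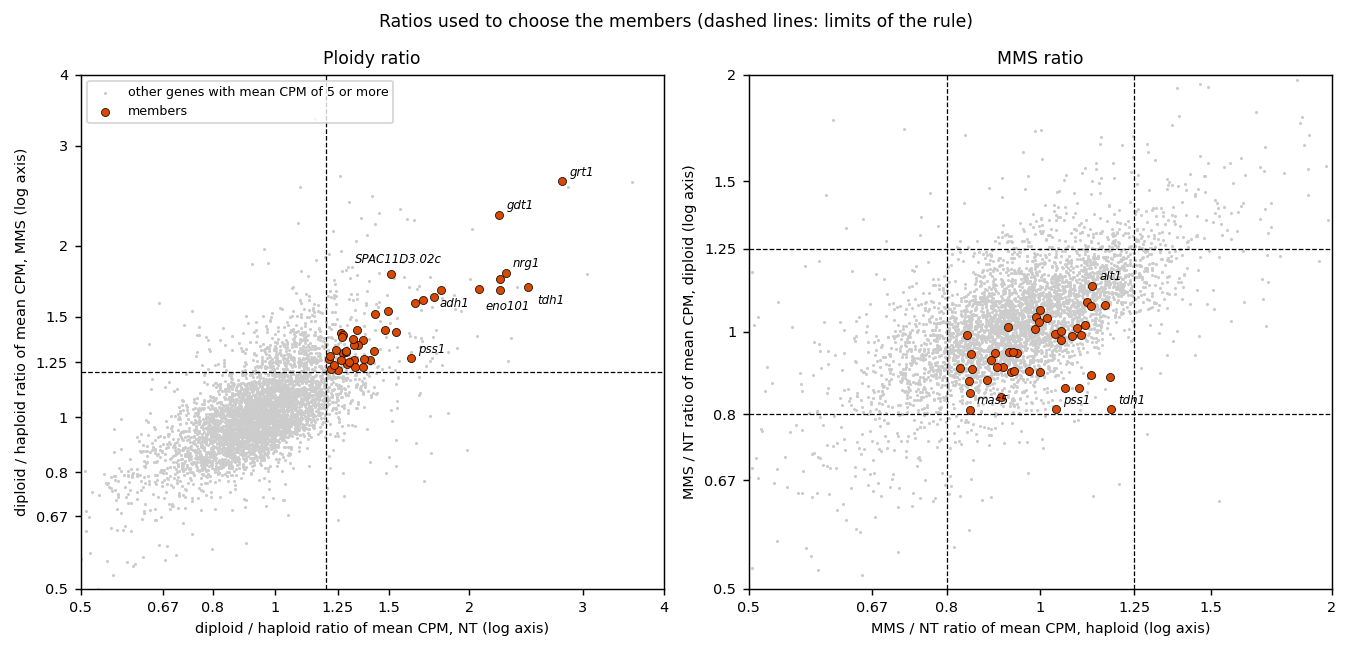
Ratio of mean CPM of diploids to haploids in MMS against NT (left) and of MMS to NT in diploids against haploids (right), on log axes, for members (orange) and other genes with a mean CPM of 5 or more (grey). Dashed lines mark the limits of 1.2, 0.8 and 1.25 that chose the members, so the empty space beyond them is set by the rule; *grt1+* at 2.79 and 2.60 is the farthest member on the left.

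The groups were separate within each treatment because the rule asked for it, and the gap was often narrow. The lowest diploid library was a median of 1.14 times the highest haploid library in NT and 1.097 times in MMS, and the gap was under 1.1 times for 13 members in NT and 23 in MMS. All 6 diploid libraries lay above all 6 haploid libraries for 28 of the 43 members and for 1.08% of the genes with a mean CPM of 5 or more, a difference that the limits of the rule on overlap and on MMS nearly set. Diploids were higher with no overlap in NT for 8.76% of those genes and in MMS for 8.31%, counts that the rule fixed at 43 of 43 for the members.

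The cytosolic chaperones gave some of the most abundant members. *hsp90+* encodes the Hsp90 chaperone, which matures kinases and other client proteins, and lies on the minus strand of chromosome I, 3888558 to 3891157 in the deposited table (its build is not given). Its levels were 613, 742 and 815 CPM in haploid NT, 723, 818 and 836 in haploid MMS, 1700.3, 1430.3 and 1707 in diploid NT and 1339, 1225 and 1592 in diploid MMS. Haploid libraries reached at most 836 CPM and diploid libraries had at least 1225 CPM, so the 2 ploidies did not overlap in any treatment. The ratio was 2.23 in NT and 1.75 in MMS, and the level in MMS was 1.09 of NT in haploids and 0.859 in diploids.

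*ssa2+*, a gene of the cytosolic Hsp70 family, had 988, 1771 and 1769 CPM in haploid NT, 1039, 1489.5 and 1593 in haploid MMS, 2807, 2276 and 2905 in diploid NT and 2104, 2014 and 2577 in diploid MMS. The haploid libraries numbered 1 were the lowest of the 12, and no diploid library fell to the highest haploid one. The ratio was 1.76 in NT and 1.62 in MMS. Its coding sequence is 82.6% identical to that of *ssa1+*, which had ratios of 1.58 and 1.88 but left the haploid MMS window at 0.682, and reads shared by the pair could be split between them.

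*pss1+*, which encodes an Hsp110-type partner of Hsp70, had 719.6, 603 and 635 CPM in haploid NT, 643, 680.2 and 709 in haploid MMS, 1018, 1176 and 985 in diploid NT and 810.3, 1005 and 764 in diploid MMS. Here the diploid lead was larger in NT, with a ratio of 1.62, than in MMS, with a ratio of 1.27. *mas5+*, a DnaJ-domain co-chaperone of Hsp70, had 416, 342 and 373 CPM in haploid NT, 319, 309.8 and 328 in haploid MMS, 523, 588 and 567 in diploid NT and 384, 469 and 506 in diploid MMS. Its ratios were 1.48 and 1.42, and its level in MMS was 0.845 of NT in haploids and 0.810 in diploids, the lowest diploid value among the members. The chaperone list holds 23 genes, of which 4 were members; 7 of its 19 genes with a mean CPM of 5 or more had a ratio of 1.2 in NT and 8 in MMS. The co-chaperone gene *aha1+* (1.68 in NT, 1.54 in MMS) had separate groups and fell outside only because its MMS ratio in haploids was 1.26. Genes of the CCT chaperonin, which folds actin and tubulin, stayed close to 1, with NT ratios from 1.06 for *cct8+* to 1.101 for *cct5+* over the 5 measurable subunits.

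Hsf1, the heat shock factor, is known to bind arrays of GAA units in alternating orientation, and 2-unit forms were searched for on both strands in the 300 bases before each RefSeq start (genome ASM294v3). Each 2-unit form reads the same on both strands. GAANNTTC was found before 11 of 43 members, 25.6%, and before 11.5% of 4445 genes searched. TTCNNGAA was found before 5 members, 11.6%, and before 9.54% of genes; 14 members, 32.6%, held either form against 19.5% of genes. In the 500 bases before the start, GAANNTTC was held by 25.6% of members and 18.8% of genes, and TTCNNGAA by 16.3% and 17.2%. The stretches shown are those before the abundant chaperone members, *cho2+*, *mcp60+* and *adh1+*, which are described in the text. For *cho2+* and *mcp60+* another matched element in the 300 bases is not shown. Capitals mark the matched element, and each stretch is written in the direction of the gene.
hsp90, chromosome I, 3891159 to 3891226, minus strand: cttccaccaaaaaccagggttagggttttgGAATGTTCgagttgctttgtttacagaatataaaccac
ssa2, chromosome III, 2056968 to 2056996, plus strand: agggttagggttttggGAAACTTCGAGAA
pss1, chromosome I, 1920866 to 1920895, minus strand: aaaagttctcaGAACTTTCgagttgaatca
mas5, chromosome II, 1081140 to 1081169, plus strand: taaaaggaaagGAAATTTCtcatctcttga
cho2, chromosome II, 3945629 to 3945696, plus strand: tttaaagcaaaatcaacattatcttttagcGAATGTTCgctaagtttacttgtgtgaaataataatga
mcp60, chromosome I, 342138 to 342167, minus strand: atcaaagttctTTCTAGAAtatcaggcagt
adh1, chromosome III, 1591052 to 1591081, plus strand: ccatgcTTCCTGAAGATTCCCGAAatgtgt
Before *ssa2+* and *adh1+* stood at least 3 alternating units in a row, a form that holds both 2-unit forms and was searched for after their results were seen; they are 2 of 43 members, 4.65%, against 0.54% of genes. The lines for *hsp90+* and *ssa2+* also share a run of 16 bases, AGGGTTAGGGTTTTGG, which directly precedes or touches the element in both and occurs before no other of the 4445 genes. These matches describe letters in a window and not binding. Where the bases around an element overlap the interval of a neighbouring or the same gene, the stretch was cut to at most 30 bases. The elements of *mas5+* and *adh1+* lie within these genes' own intervals in the deposited table, which begin upstream of the RefSeq start. The stretch of *pss1+* reaches into its own interval, and those of *ssa2+* and *mcp60+* lie in or next to the intervals of *ppe1+* and *cip2+*.

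Among the enzymes of glycolysis and fermentation, *tdh1+* was the most abundant member of all. It encodes glyceraldehyde-3-phosphate dehydrogenase, on chromosome II, 2807534 to 2809051, and had 940.4, 2224 and 2216 CPM in haploid NT, 1378, 2452 and 2543 in haploid MMS, 4846, 4199 and 4238 in diploid NT and 4190.4, 3993 and 2594 in diploid MMS. The haploid libraries numbered 1 were well below the other haploid libraries, and Diploid MMS 3 was close to the highest haploid library, so the groups were wide apart in NT but nearly met in MMS. The ratio was 2.47 in NT and 1.69 in MMS. Its coding sequence is 93.4% identical to that of *gpd3+*, whose ratios were 1.99 and 0.874, and whose level in MMS was 2.37 times NT in haploids. How reads were split between this pair is uncertain.

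*eno101+*, which encodes enolase, had 729.6, 2407 and 2389 CPM in haploid NT, 1047, 2709 and 2759 in haploid MMS, 4360.3, 4205 and 3750.1 in diploid NT and 3981, 3978 and 2949 in diploid MMS. *adh1+*, the alcohol dehydrogenase that makes ethanol, had 1186, 2364 and 2314 CPM in haploid NT, 1331, 2396 and 2491 in haploid MMS, 4199, 4092 and 3848 in diploid NT and 3909, 4005 and 2519 in diploid MMS. Both genes had the arrangement of *tdh1+*: the haploid libraries numbered 1 lay lowest and Diploid MMS 3 was the lowest diploid library. Ratios were 2.23 and 1.67 for *eno101+* in NT and MMS, and 2.07 and 1.68 for *adh1+*. On the list of 17 genes, 13 reached a ratio of 1.2 in NT and 9 in MMS, with median ratios of 1.56 and 1.25. The aldolase gene *fba1+* (2.38 and 1.70) missed the members through a haploid MMS ratio of 1.27, and *pgk1+* (2.32 and 1.38) and *gpm1+* (2.06 and 1.39), which encode phosphoglycerate kinase and mutase, missed them through overlap in MMS and MMS ratios of 1.71 and 1.46 in haploids.

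**Figure D3:**
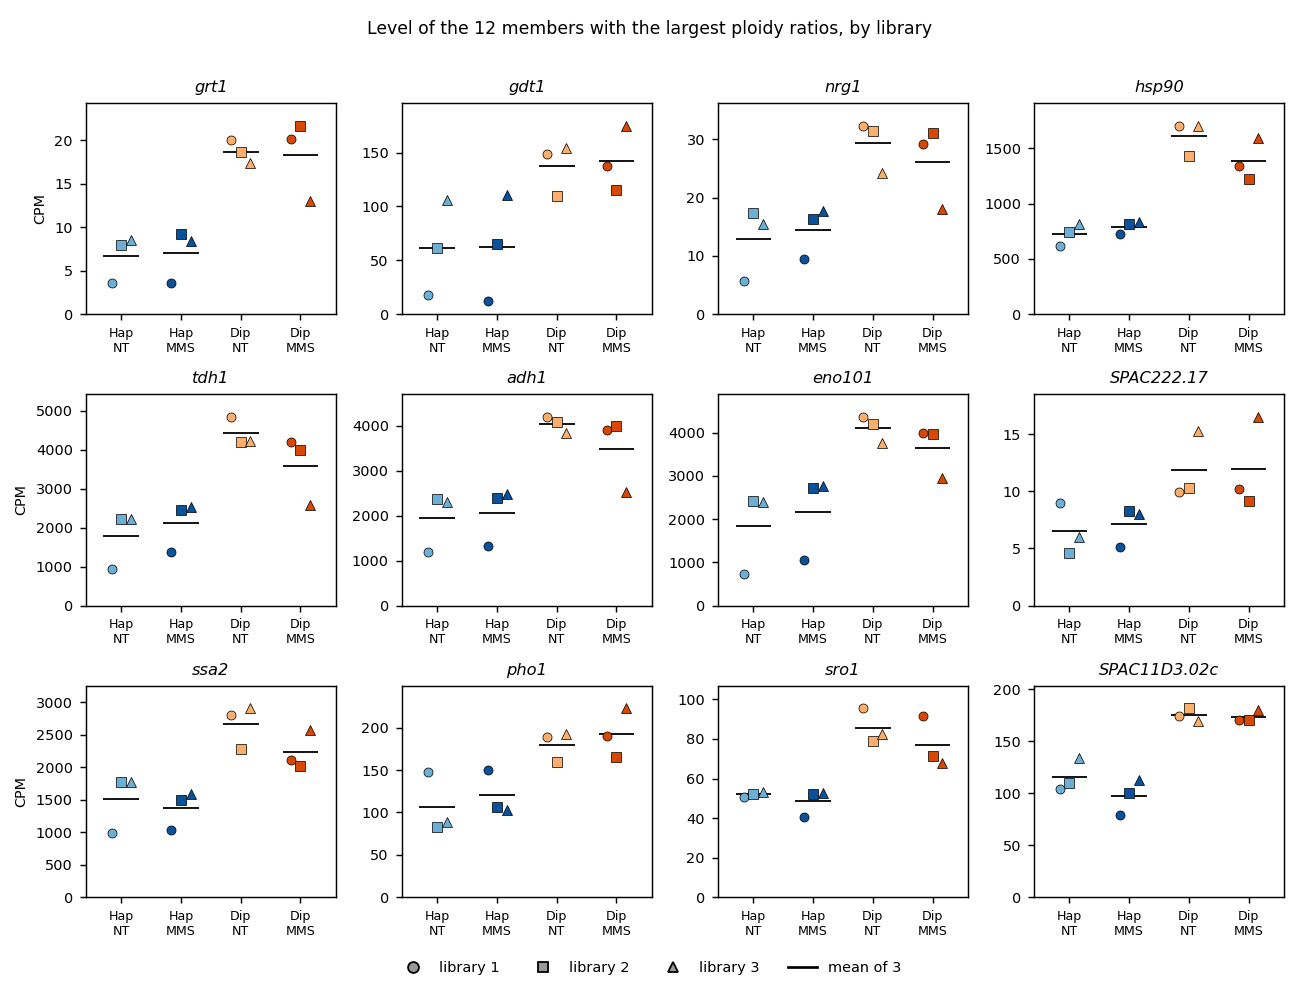
CPM (vertical axes, from 0) in each library of the 4 groups (horizontal axes) for the 12 members with the largest smaller-of-2 ploidy ratio; symbols mark library numbers 1 to 3 and black lines the mean of 3. The circles of library 1 lie lowest in both haploid groups for 10 of the 12 genes, highest in both for *pho1+*, and highest in NT but lowest in MMS for SPAC222.17.

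Near chromosome ends lay 5 of the 43 members, 11.6%, against 76 of 4450 genes, 1.71%, that start within 100 kb of the first or last gene of chromosome I or II. *grt1+*, annotated as a transcription factor, lies 42.1 kb from the first gene of the table on chromosome II and had the largest ratios of all members. It had 3.58, 7.97 and 8.56 CPM in haploid NT, 3.54, 9.18 and 8.39 in haploid MMS, 19.99, 18.7 and 17.4 in diploid NT and 20.1, 21.7 and 13.0 in diploid MMS. Its ratio was 2.79 in NT and 2.60 in MMS, and the haploid libraries numbered 1 were lowest. Its interval overlaps that of the opposite-strand gene *fah1+*, which had a mean of 0.223 CPM, by 1703 bases. The strand setting of the counting is not given, so whether reads in the overlap were counted for either gene is uncertain.

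*gdt1+*, annotated as a GDT1-like protein, lies 27.3 kb from the last gene of the table on chromosome I. It had 18.0, 61.4 and 106 CPM in haploid NT, 12.1, 65.4 and 111 in haploid MMS, 149, 109.6 and 154 in diploid NT and 137, 115 and 175 in diploid MMS. Haploid libraries numbered 1, 2 and 3 stood far apart in the same order in NT and MMS, and the highest of them came within 1.04 times of the lowest diploid library in each treatment. The ratio was 2.23 in NT and 2.27 in MMS, the largest in MMS after *grt1+*.

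*nrg1+*, annotated as an amino acid permease, had 5.72, 17.4 and 15.5 CPM in haploid NT, 9.44, 16.4 and 17.8 in haploid MMS, 32.4, 31.4 and 24.2 in diploid NT and 29.1, 31.1 and 18.0 in diploid MMS. Library Diploid MMS 3 was only 1.01 times Haploid MMS 3, and the ratios were 2.28 and 1.79. *pho1+*, which encodes the secreted acid phosphatase that is induced when phosphate is scarce, had 148, 82.7 and 88.8 CPM in haploid NT, 150.4, 106 and 103 in haploid MMS, 189, 159 and 192 in diploid NT and 190.5, 166 and 223 in diploid MMS. In contrast to the members above, its haploid libraries numbered 1 were the highest haploid ones, and the ratios were 1.69 and 1.61. These genes lie 75.2 and 85.4 kb from the last gene of the table on chromosome II with 1 gene between them. Of the other phosphate genes, *pho84+*, a phosphate transporter gene, had ratios of 1.89 and 1.64. It overlapped in MMS and also left the MMS window in diploids, at 0.745. *tgp1+* had 1.09 and 1.40.

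SPAC11D3.02c, annotated as an ELLA family acetyltransferase, lies 98.045 kb from the first gene of the table on chromosome I, close to the limit of 100 kb. It had 104, 110.1 and 134 CPM in haploid NT, 78.9, 101 and 113 in haploid MMS, 174, 182 and 169.9 in diploid NT and 171, 170.2 and 180.5 in diploid MMS. The diploid libraries spanned only 169.9 to 182 CPM, and the ratio was larger in MMS (1.78) than in NT (1.51). Its neighbour SPAC11D3.01c lay just outside the members, with a haploid MMS ratio of 0.787.

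The 2 remaining genes with both ratios over 1.5 were SPAC222.17 and *sro1+*. SPAC222.17, an uncharacterized protein gene and the least abundant member, had 9.01, 4.59 and 6.04 CPM in haploid NT, 5.11, 8.27 and 8.03 in haploid MMS, 9.92, 10.3 and 15.3 in diploid NT and 10.2, 9.17 and 16.5 in diploid MMS. The 3 libraries of each group were spread, as in haploid NT where library 1 was the highest, and the ratio was 1.81 in NT and 1.67 in MMS. *sro1+* had 50.5, 52.3 and 53.2 CPM in haploid NT, 40.7, 52.1 and 52.8 in haploid MMS, 95.5, 78.8 and 82.7 in diploid NT and 91.4, 71.6 and 67.8 in diploid MMS. Its haploid NT libraries were tight while Haploid MMS 1 lay below the rest, and its ratios were 1.65 and 1.59.

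Among mitochondrial genes, *mcp60+* encodes the Hsp60-type chaperonin of the matrix and was among the most abundant members. It had 1129, 1207 and 1413 CPM in haploid NT, 1166, 1146 and 1169 in haploid MMS, 1549, 1512 and 1721 in diploid NT and 1314, 1215 and 1991 in diploid MMS. Diploid MMS 3 stood apart at the top, and Diploid MMS 2 was only 1.04 times Haploid MMS 3. The ratios were 1.28 and 1.30. *tim16+*, a subunit of the import motor, had ratios of 1.29 and 1.31, and *erv1+*, the sulfhydryl oxidase of the intermembrane space, had 1.40 and 1.26. These are 3 of 28 genes on the list of mitochondrial import and folding, whose median ratios were 1.06 and 1.03.

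Enzymes of amino acid metabolism formed a further group. *ilv3+*, dihydroxy-acid dehydratase of branched-chain amino acid synthesis, had 712, 568 and 705 CPM in haploid NT, 625, 524 and 534 in haploid MMS, 808, 811 and 896 in diploid NT and 683, 721 and 962 in diploid MMS. The ploidies did not overlap within a treatment, and the ratios were 1.27 and 1.41. *adi1+* had ratios of 1.37 and 1.27. The amino acid list of 44 genes held 3 members, both of these included. *adi1+*, acireductone dioxygenase, and *mta1+*, methylthioadenosine phosphorylase (1.37 and 1.37), both act in methionine salvage, a link made after their values were seen. Aminotransferase genes among the members were SPCC569.07 (1.43 and 1.52), annotated for aromatic amino acids, and *alt1+* (1.23 and 1.23), annotated for alanine.

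Of genes for lipids, *cho2+*, phosphatidylethanolamine methyltransferase, had 239.9, 277 and 295 CPM in haploid NT, 271, 298 and 307 in haploid MMS, 390.0, 382 and 383 in diploid NT and 362, 431 and 349 in diploid MMS. All 6 diploid libraries lay above all 6 haploid ones, with ratios of 1.42 and 1.30. *slc1+*, an acyltransferase of phosphatidic acid synthesis, had ratios of 1.54 and 1.41. *idi1+*, isopentenyl diphosphate isomerase of the sterol pathway, had 1.32 and 1.26 and was the only member of 23 ergosterol genes. The squalene epoxidase gene *erg1+* had 1.67 in NT but 1.18 in MMS.

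Genes of RNA and protein handling had ratios between 1.21 and 1.40. *tif213+*, the gamma subunit of the initiation factor eIF2, had 1.37 and 1.23 and was the only member of 32 translation factors. *mrs1+*, an arginyl-tRNA synthetase gene, had 1.22 and 1.21, and *tad3+*, a subunit of the tRNA adenosine deaminase, had 1.27 and 1.40. *mlo3+*, an RNA-binding protein of mRNA export, had 1.33 and 1.34, and *nhm1+*, which hydrolyses cap remnants, had 1.32 and 1.37. *rrn10+*, of the RNA polymerase I activation factor, had 1.34 and 1.34, but 400 bases of its interval lie under the more abundant opposite-strand gene *krp1+* (692 CPM), and the strand setting of the counting is not given. Counting genes with a mean CPM of 5 or more, members included 0 of 117 ribosomal protein genes and 0 of 18 splicing factor genes. They also included 0 of 33 plasma membrane transporter genes. Members made up 0.966% of all genes at that level, so few or none would be found in lists of these sizes. The ribosomal protein genes had a median ratio of 1.22 in NT and 1.13 in MMS, and in 0 of them did the diploid libraries lie above the haploid ones in both treatments.

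Modifiers and cytoskeletal genes included *rad31+*, a subunit of the SUMO-activating enzyme (1.21 and 1.26), *dcn1+*, which promotes neddylation (1.25 and 1.31), SPCC18.17c, annotated as a proteasome regulatory subunit (1.22 and 1.28), *swd3+*, of the Set1 histone methyltransferase complex (1.29 and 1.30), and *alp1+*, tubulin cofactor D (1.27 and 1.39). *ecl2+*, which encodes a small protein known for extending chronological life span when overexpressed, had ratios of 1.34 and 1.42. *ade2+*, adenylosuccinate synthetase of purine synthesis, had 1.29 and 1.24, and *iah1+*, annotated as an isoamyl acetate hydrolase, had 1.49 and 1.54. The rest were SPBC115.03 (1.33 and 1.22), SPBC18E5.01 (1.25 and 1.21) and SPAC1834.10c (1.27 and 1.26). For *dcn1+* the lowest diploid NT library was 1.002 times the highest haploid one, so a small shift would have removed it.

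The members' response to MMS was small by choice. The ratio of MMS to NT ran from 0.826 to 1.18 in haploids with a median of 0.989, and from 0.810 to 1.13 in diploids with a median of 0.943, against 0.953 and 1.03 for all genes with a mean CPM of 5 or more. The ratio was above 1 for 18 members in haploids and 13 in diploids. In 25 members it was smaller in diploids than in haploids, which by arithmetic is the same as a smaller ploidy ratio in MMS. These counts are for CPM and depended on the scaling, as given with the fit below. Examples of a smaller ploidy ratio in MMS were *tdh1+* (2.47 to 1.69), *eno101+* (2.23 to 1.67) and *nrg1+* (2.28 to 1.79). SPAC11D3.02c moved the other way, from 1.51 to 1.78.

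The same comparisons were fitted across all 4584 genes that passed a filter on low counts, which all 43 members did, with edgeR's quasi-likelihood test and Benjamini-Hochberg adjustment. At an adjusted p under 0.05, 24 of 43 members were called higher in diploids in NT, beside 1.92% of all genes, and 4 of 43 in MMS, beside 0.48%. The 4 called in MMS were *hsp90+* (log2FC 0.80 ± 0.13, SE), SPAC11D3.02c (0.83 ± 0.12), SPCC569.07 (0.60 ± 0.11) and *ecl2+* (0.50 ± 0.10). DESeq2 called 37 (3.97% of genes) and 18 (1.81%). The rule used these contrasts, so the counts say only which members the test would also have named. The counts changed when a library was left out, which also leaves fewer libraries in its group. Without Diploid NT 1 the NT count was 5, and without Diploid MMS 3 it was 36. The MMS count was 0 without Haploid MMS 2 or Diploid MMS 2 and 10 without Haploid NT 1.

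Both MMS comparisons called 0 members in edgeR, beside 5.58% of genes in haploids and 1.46% in diploids, in either direction. The rule limited the MMS ratio in both ploidies, and with it the difference between the 2 responses. Low counts of members in this paragraph are therefore in large part set by the rule. At an unadjusted p under 0.05 there were 0 members in haploids (22.2% of genes) and 2 in diploids (13.6%), *pss1+* and *mas5+*, and DESeq2 called 0 in each (12.3% and 5.3%). With the library number as a block, 3 members were called in haploids, beside 23.3% of genes, and 2 in diploids, beside 10.9%. *eno101+* (log2FC 0.36), *pho1+* (0.26) and SPBC18E5.01 (0.22) were higher in haploid MMS, and *pss1+* (-0.33) and *mas5+* (-0.33) were lower in diploid MMS. The MMS window therefore bounds the size of the change and does not show that these genes were unmoved. The difference between the 2 responses, diploid minus haploid, was called for 0 members and 0% of genes in edgeR. Its unadjusted p was under 0.05 for 2 members, *hsp90+* (-0.44 ± 0.18) and *pss1+* (-0.43 ± 0.19), and for 3.4% of genes, and DESeq2 called 0 members and 0.0218% of genes. The median log2FC of this difference was -0.12 over the members and 0.02 over all genes. It was above 0 for 6 of 43 members in this fit, which scaled libraries by edgeR's TMM factors and not by CPM alone. On that scale the change with MMS was above 0 for 24 members in haploids and 9 in diploids.

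Libraries with the number 1 in the 2 haploid groups stood apart for part of the members. In both, *grt1+*, *gdt1+*, *nrg1+*, *tdh1+*, *adh1+* and *eno101+* were under 0.67 of the mean of haploid libraries 2 and 3. These are 6 of 43 members, beside 3.64% of genes, while 0 members were over 1.5 times that mean in both, beside 3.53%, and 33 lay between these limits in both. The rule tilts both counts. A low haploid library lowers the haploid mean and so raises the ploidy ratio, while a high one tends to break the condition on overlap. The counts are therefore not a separate trait of the members. For *eno101+* the library was 0.304 of the other haploid libraries in NT and 0.383 in MMS, and for *gdt1+* 0.215 and 0.137. The diploid lead of these genes was smaller against libraries 2 and 3 alone but did not vanish. Without library 1, the ratio of *grt1+* was 2.26 in NT and 2.08 in MMS, that of *gdt1+* 1.64 and 1.62, that of *tdh1+* 1.99 and 1.44, and that of *eno101+* 1.71 and 1.33. The ratio of *hsp90+* hardly moved, at 2.07 and 1.68, and that of *pho1+* rose to 2.10 and 1.84.

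**Figure D4:**
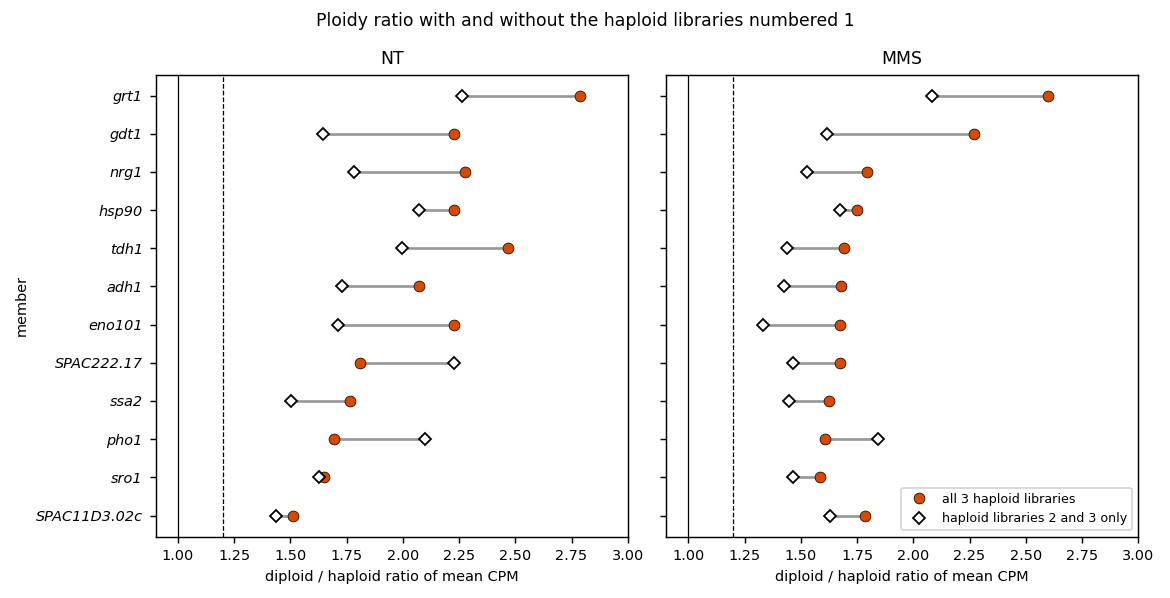
Ratio of mean CPM of diploids to haploids (horizontal axis) for 12 members (vertical axis) in NT (left) and MMS (right), with all 3 haploid libraries (orange) and with libraries 2 and 3 only (white); the solid line is at 1 and the dashed line at the limit of 1.2. All 12 members stay above 1.2 without the haploid libraries numbered 1, the lowest being *eno101+* in MMS at 1.33.

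Leaving out a library eases the condition on overlap, since fewer libraries must lie apart. With both haploid libraries numbered 1 left out, a choice made after the data were seen, 208 genes met the rule and 37 of the 43 members were kept. Lost were SPAC222.17, SPBC115.03, SPBC18E5.01, SPCC18.17c, *alt1+* and *rrn10+*. With medians in place of means of the 3 libraries, 32 genes met the rule and 29 members were kept, and *hsp90+*, *ssa2+*, *pss1+* and *mcp60+* were among the 14 lost. Membership was also sensitive to single libraries. When each of the 12 libraries was left out in turn, the rule gave from 33 genes without Haploid NT 2 to 76 without Diploid MMS 3, and 9 members were kept in all 12 runs. These 9 were *sro1+*, *iah1+*, SPCC569.07, *slc1+*, *ecl2+*, *mlo3+*, *cho2+*, *alp1+* and *erv1+*, of which *sro1+* had the largest ratios. Diploid MMS 3 was the highest of its group for 20 members and the lowest for 19. It was 0.634 of the other diploid MMS libraries for *tdh1+*, 0.637 for *adh1+*, 0.621 for *grt1+* and 0.596 for *nrg1+*, but 1.57 for *mcp60+*. That library also had the highest *map2+* level, and the part of these library differences in the ratios was not tested beyond the values without them.

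Scaled by the spike-ins, which keeps changes in mRNA per harvested cell, the members were further apart. The diploid to haploid ratio had a median of 2.54 in NT, with a range of 2.22 to 5.84, and of 3.64 in MMS, with a range of 3.23 to 6.90. All genes with a mean CPM of 5 or more had medians of 1.78 and 2.71. The members thus lay above an all-gene shift of 0.83 on the log2 scale in NT and 1.44 in MMS. On this scale the members' level in MMS had a median of 0.679 of NT in haploids (all genes 0.656) and of 0.932 in diploids (all genes 1.02). The NT ploidy ratio and the haploid MMS value rested in part on Haploid NT 1, whose spike-in share of 1.90% was the smallest of the haploid libraries. Without it the median ploidy ratio in NT was 3.43, and the median of MMS to NT in haploids was 0.847 (all genes 0.863), with 27 of 43 members between 0.8 and 1.25 in place of 4. In bulk RNA a larger level in every cell and a larger share of cells with a high level cannot be told apart.

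**Figure D5:**
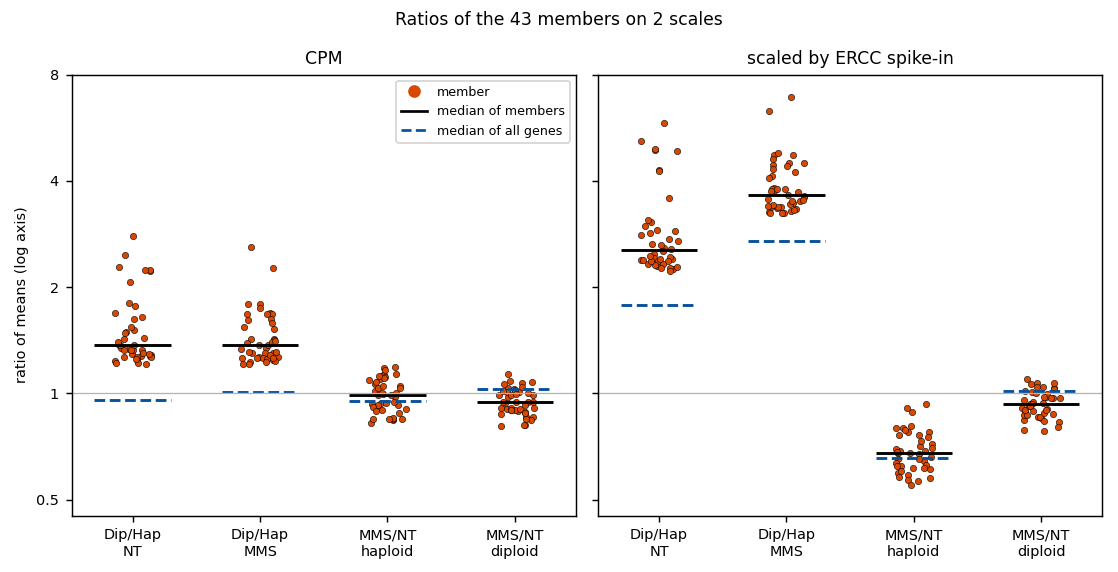
Diploid to haploid and MMS to NT ratios (vertical axes, log scale) of the 43 members (orange points, spread sideways for sight) from CPM (left) and from counts scaled by spike-ins (right); black lines are the medians of members and dashed blue lines those of all genes with a mean CPM of 5 or more. The haploid MMS to NT median moves from 0.989 to 0.679 between the scales, and to 0.847 on the spike-in scale without Haploid NT 1.

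Other features that the rule did not use were compared with those of the 4450 genes as descriptions. The members had a median length of 1548 bases against 1871.5 and 1 exon in 58.1% against 51.3%. Chromosome II held 23 of them, 53.5% against 36.4% of genes, chromosome I held 15 and chromosome III held 5. In the 300 bases before the start, CCCCT or its complement was found before 18.6% of members and 9.85% of genes, and GATAAG or its complement before 23.3% and 12.1%. Shares for TATAAA were 53.5% and 51.3%, for ACGCGT 4.65% and 2.83%, for TGACGT 4.65% and 5.8%, for CAGTCACA (HomolD) 2.33% and 2.7%, and for HomolE 0% and 1.24%, each on both strands. The ACGCGT matches were before *pho1+* and *mlo3+*. Apart from *tdh1+* and *ssa2+*, the closest copies of members were at most 68.6% identical over the aligned coding bases.

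On the lists fixed for the comparison, which were chosen with earlier results of these data known, genes called at an adjusted p under 0.05 were as follows, beside 1.92% of all genes called higher in NT and 0.48% in MMS. In NT, 4 of 17 tested glycolysis genes (*pyk1+*, *fba1+*, *pfk1+* and *tdh1+*) and 4 of 20 tested chaperones were higher in diploids and 0 lower, with median log2FC of 0.71 and 0.25 beside 0.01 for all genes. In MMS, 0 glycolysis genes and 1 chaperone were higher. Other lists had 1 of 26 mitochondrial import genes, 2 of 11 phospholipid genes, 3 of 40 amino acid genes, 1 of 31 translation factors and 1 of 7 phosphate genes higher in NT, and 0 of each in MMS, with 0 lower in either. Ergosterol genes had 3 of 22 higher and 1 lower in NT and 0 in MMS, ribosomal protein genes had 0 of 118 in both, and splicing factors had 0 of 20 higher and 1 lower in NT. The list of plasma membrane transporters, which does not include *nrg1+* and holds no member, had 10 of 35 higher in NT and 4 in MMS, and subtelomeric genes had 14 of 91 higher and 4 lower in NT and 4 higher in MMS.

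Several genes stood close to a limit of the rule. For the ratio in NT, *rad31+* was just inside at 1.21 and *ptf2+* just outside at 1.197. For the ratio in MMS, SPBC18E5.01 was inside at 1.21 and *his1+* outside at 1.196. At the low end of the MMS window, *tad3+* was inside at 0.826 in haploids, and *mas5+* was inside at 0.810 and *shm1+* outside at 0.772 in diploids. At the high end in haploids, *tdh1+* was inside at 1.18 and *aha1+* outside at 1.26. The least abundant member, SPAC222.17, had 9.36 CPM against the minimum of 5.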

How the data were processed

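Polyadenylated RNA of 12 libraries was sequenced as paired ends, 3 libraries in each of 4 groups. The authors aligned the reads to the PomBase reference with STAR 2.7.0e, per the submitters' processing notes, and deposited raw counts per gene made with featureCounts, as whole numbers without normalization, for 4857 *S. pombe* genes and 92 spike-ins. Build, strand setting and counter version: not given in the sources used here. Precision did not follow depth alone. The SE of the log2FC between ploidies in NT was 0.11 for SPCC569.07 and 0.37 for *grt1+*, which are among the 12 members under 50 CPM. It was 0.34 for *tdh1+* and 0.43 for *eno101+*, which are far more abundant.

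CPM was computed over *S. pombe* rows. Spike-in factors were medians of ratios over 60 spike-ins. Genes under 5 reads in at least 2 libraries were removed, as was the pair with identical open reading frames that the study left out. The remaining 4584 genes were fitted with edgeR 4.0.16 (R 4.3.3, TMM, quasi-likelihood, 1 mean per group, all 12 libraries), with adjusted p under 0.05 as the threshold. The fit was tested on simulated data. DESeq2 1.42.0, spike-in scaling, other limits of the rule, a replicate block and leaving out each library were the alternatives. Coding copies were found with blastn 2.17.0, and Python 3.11.15 with pandas 2.3.3 made the tables. Promoters came from the RefSeq genome ASM294v3, to which 4850 of 4857 IDs matched by locus tag.

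Cultures were divided between NT and MMS, but the labels do not tie library numbers to cultures. Residuals of same-numbered NT and MMS libraries correlated at 0.711, 0.647 and 0.499 in haploids and 0.56, 0.441 and 0.577 in diploids, so the number was used as the block in the MMS comparisons. Haploid NT 2 also correlated with Haploid MMS 3, at 0.571, so the residuals do not settle which of the haploid libraries 2 and 3 belong together.

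Members, gene lists and tests were chosen with earlier results of these data known. Members named with values were the 12 with the largest smaller-of-2 ploidy ratio, the 6 of highest mean CPM, up to 3 per list by CPM, those next to a limit, and neighbours on a chromosome. The symbols opi3, ino1, trp1 and csk1 of the lists matched no gene. Members described beyond this rule were named after their values were seen. The values of 1 member are not reported here.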

Additional observations from a re-analysis of the deposited data

How the results depend on the processing

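The number of genes meeting the rule was 43, and became 384 on spike-in values (3 of them members), 70 and 12 at ploidy ratios of 1.1 and 1.5, 18 and 70 with a narrower (from 0.9) and a wider (0.67 to 1.5) MMS window, 101 without the overlap condition, 32 with medians of the 3 libraries (29 of them members), 208 without both haploid libraries numbered 1, and 33 to 76 when a library was left out. TMM-normalized CPM gave 54 genes, 35 of them members. Members called higher in diploids in NT, 24, became 37 with DESeq2, 43 with spike-in factors, 13 with the NT libraries alone, 39 without both haploid libraries numbered 1 and 12 at log2FC above 0.58 (3 in MMS); leaving out a library gave 5 to 36, with 8 without Haploid NT 2, 10 without Haploid NT 3, 14 without Haploid MMS 2, 9 without Diploid NT 2, 8 without Diploid NT 3 and 15 without Diploid MMS 1. In MMS, 4 became 18 with DESeq2, 43 with spike-in factors, 0 with the MMS libraries alone, 2 with the replicate block and 15 without both haploid libraries numbered 1, and leaving out a library gave 0 to 10. Between the ploidies the block left the NT count at 24, and same-numbered libraries, which share only a number there, correlated from -0.342 to 0.371. With the replicate block on library numbers, 3 members were called in haploid MMS and 2 in diploid MMS in place of 0 and 0, and the difference between the responses stayed at 0. The cause of these changes was not tested, apart from those set by a limit itself. For the rule, leaving out a library also eases the condition on overlap. For single named genes, 1171 values kept their direction and side of the threshold under an alternative, 118 passed it and 97 no longer did, and 0 reversed.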
